A study of Mus musculus with 2 samples.

Results

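The genes examined here encode the 8 members of the E2F family of transcription factors, E2f1 to E2f8. The family was taken as every row of the DHS-seq table whose transcript name carried a member's symbol. This gave 20 of the 55432 rows, and the row with the most windows stood for each gene, so that 8 of 22605 genes are described. M1 is a mouse myeloid leukemia line that grows as immature progenitors, stops dividing and differentiates toward macrophages when interleukin-6 (IL-6) is added. Nuclei of untreated M1 cells and of M1 cells kept in IL-6, for 4 to 5 days according to the labels, were treated with a small dose of DNase I, an enzyme that cleaves accessible chromatin preferentially, and the released DNA was sequenced. Both libraries came from bone-marrow-derived M1 cells at passages 15 to 18, with no genetic change named in the labels, and the treated cells are the same line with IL-6 added. There was 1 library of each, so no difference below has a replicate check and no test across libraries was possible.

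E2F proteins bind the promoters of genes needed for DNA synthesis and cell division. Most members bind DNA together with a DP partner and are held in check by the retinoblastoma protein or its relatives, the pocket proteins, until cyclin-dependent kinases release them. E2f1, E2f2 and E2f3 are known mainly as activators. E2f4 and E2f5 act mainly as repressors with pocket proteins in resting cells, E2f6 represses without pocket proteins, and the atypical members E2f7 and E2f8 bind DNA without a DP partner and repress. When myeloid progenitors differentiate they leave the cell cycle.

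In the table a value is the mean number of scaled reads per 700-bp window, over the windows touched by a transcript's coding span. This span runs from start to stop codon with introns. The SD after a mean is that between windows of the same library. A read counted 1 in the untreated library and 1.03816 in the IL-6 library. The coding spans that did not overlap held 8972180 reads in untreated and 8432474 in IL-6-treated cells over 1184303 windows, or 7.58 and 7.12 reads per window. Intervals are 95% intervals from the read numbers, Poisson for a mean and Clopper-Pearson for a ratio. They cover counting error only. As a check on the cell label, all 8 myeloid marker genes of a fixed list were above the median of all genes, 7.75, in untreated cells, against 2 of 8 markers of other lineages. In IL-6-treated cells, where the median of all genes was 8.14, these numbers were 6 of 8 and 5 of 8, and none of the 16 genes was at 0 in either library. The part of this smaller separation in the results below was not tested.

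A coding span does not always reach the promoter. By the GENCODE M1 annotation on NCBIM37, the build of the table, the transcription start site lay inside the counted windows for 4 members, E2f3, E2f4, E2f5 and E2f6. It lay 128 bp outside them for E2f1, 292 bp for E2f2, 277 bp for E2f7 and 1166 bp for E2f8. Values of the latter 4 genes therefore describe the gene downstream of its GENCODE start. Promoter sequences for 6 of the 8 members, E2f1, E2f2, E2f3, E2f6, E2f7 and E2f8, were given by RefSeq for GRCm38.p6, with 8 promoters in all, and each matched NCBIM37 at a single place. The RefSeq start of E2f1, further downstream than that of GENCODE, was inside its windows, which could not be divided. No promoter of E2f4 or E2f5 is printed.

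Of these promoters, those of E2f6, of a downstream start of E2f2 and of the downstream start of E2f3 are printed. All their 300 bases lie in windows at the 5′ end that are described below, for E2f3 only pooled with windows at its 3′ end. These promoters are on the plus strand of chr12:16817521-16817820, the plus strand of chr4:135736447-135736746 and the minus strand of chr13:30076211-30076510 of NCBIM37. Each runs 5′ to 3′ from 250 bases before the start to 50 bases after it.
E2f6: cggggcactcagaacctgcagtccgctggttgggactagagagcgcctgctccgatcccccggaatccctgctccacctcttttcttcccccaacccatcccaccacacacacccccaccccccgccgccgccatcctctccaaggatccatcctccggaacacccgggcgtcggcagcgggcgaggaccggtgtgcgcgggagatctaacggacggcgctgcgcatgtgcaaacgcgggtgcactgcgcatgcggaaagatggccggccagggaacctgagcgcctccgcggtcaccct
E2f2 downstream start: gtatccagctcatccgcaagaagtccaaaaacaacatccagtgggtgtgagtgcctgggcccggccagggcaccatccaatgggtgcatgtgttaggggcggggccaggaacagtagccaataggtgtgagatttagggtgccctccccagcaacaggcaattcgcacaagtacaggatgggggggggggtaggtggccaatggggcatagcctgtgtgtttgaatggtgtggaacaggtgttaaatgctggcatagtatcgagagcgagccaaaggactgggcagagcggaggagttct
E2f3 downstream start: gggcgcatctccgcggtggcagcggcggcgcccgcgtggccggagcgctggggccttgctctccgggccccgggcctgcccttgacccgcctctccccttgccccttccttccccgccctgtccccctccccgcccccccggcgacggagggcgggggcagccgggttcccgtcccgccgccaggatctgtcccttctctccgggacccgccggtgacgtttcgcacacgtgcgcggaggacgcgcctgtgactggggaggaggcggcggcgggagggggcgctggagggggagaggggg
None of them holds the E2F site, searched on both strands as TTTCGCGC, TTTGGCGC, TTTCCCGC or TTTGCCGC, which says only that these letters are absent from the windows printed.

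The promoters that do hold it are shown next, with the site in capitals. They are those of the upstream start of E2f2 (plus strand, chr4:135727939-135728238), of the upstream start of E2f3 (minus strand, chr13:30077883-30078182) and of E2f7 (plus strand, chr10:110182245-110182544).
E2f2 upstream start: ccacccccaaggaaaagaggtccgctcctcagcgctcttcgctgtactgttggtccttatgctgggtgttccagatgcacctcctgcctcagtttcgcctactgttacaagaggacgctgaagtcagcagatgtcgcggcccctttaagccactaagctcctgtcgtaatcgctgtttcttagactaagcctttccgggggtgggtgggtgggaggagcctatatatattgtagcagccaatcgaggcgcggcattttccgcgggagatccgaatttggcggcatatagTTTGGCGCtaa
E2f3 upstream start: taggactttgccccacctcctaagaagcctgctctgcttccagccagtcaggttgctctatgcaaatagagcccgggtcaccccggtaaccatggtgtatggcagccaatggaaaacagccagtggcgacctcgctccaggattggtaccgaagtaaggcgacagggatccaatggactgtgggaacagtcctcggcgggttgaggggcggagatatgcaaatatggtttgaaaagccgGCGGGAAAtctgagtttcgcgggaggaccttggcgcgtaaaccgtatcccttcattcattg
E2f7: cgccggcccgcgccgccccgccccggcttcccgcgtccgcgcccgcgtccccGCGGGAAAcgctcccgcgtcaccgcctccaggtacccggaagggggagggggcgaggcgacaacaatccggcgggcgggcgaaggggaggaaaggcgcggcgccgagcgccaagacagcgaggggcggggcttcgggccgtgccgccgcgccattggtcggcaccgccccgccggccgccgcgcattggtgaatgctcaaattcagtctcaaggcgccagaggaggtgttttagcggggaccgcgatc
The site began 40 bases into the transcript at E2f2, 11 bases before the start at E2f3 and 198 bases before it at E2f7, the last 2 on the opposite strand. None of these 3 promoters lay in a counted window. At E2f3 the RefSeq start was 332 bp beyond the counted windows, while the GENCODE start used above was inside. At least 1 such site stood in 2.26% of the 32851 promoters of the same length in the RefSeq table. It stood in a promoter of 3 of the 6 members, and of 15 of the 30 genes with a promoter entry in the list of E2F target genes described further on, against 2.60% of all genes. For E2f1 only the promoter of its RefSeq start was searched, and the bases upstream of its GENCODE start were not. A match is a description of letters and not a measured binding site.

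The coding spans of 4 members carried at least 1.5-fold less signal after IL-6 and those of the other 4 did not. E2f1, E2f2, E2f4 and E2f5 were lower, with ratios of 0.458 to 0.616, whereas E2f3, E2f6, E2f7 and E2f8 had ratios of 0.812 to 1.11. No member was 1.5-fold higher. Of the 18473 genes whose reads exceeded 21 in at least 1 library, 23.2% passed this fold downward and 10.8% upward. On the scaling of the table, shares of all genes by fold or by strongest window are shares of these 18473. A fold of 2 was passed downward by E2f1 and E2f4, against 13.4% of these genes, and upward by no member, against 1.69%. The median log2 ratio of the family was -0.50 and that of all genes 0.03. These directions hold on the scaling of the table. With a scaling on strong single windows, which moved every log2 ratio by 1.85, all 8 members were higher in IL-6-treated cells, although each kept its distance to the other genes.

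**Figure D1:**
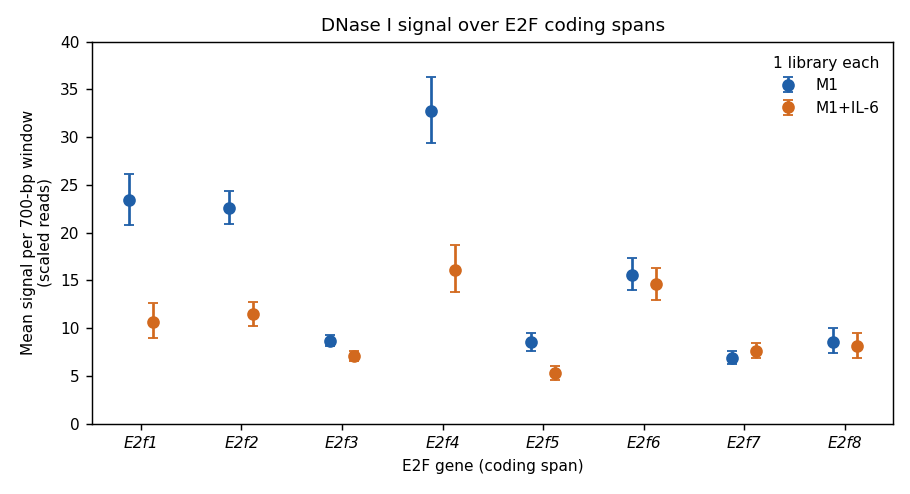
Mean DNase I signal per 700-bp window (scaled reads) over the coding span of each E2F gene in the library of untreated M1 cells (blue) and of IL-6-treated M1 cells (orange), with 95% Poisson intervals for counting error. E2f1, E2f2, E2f4 and E2f5 were at least 1.5-fold lower after IL-6 on the scaling of the table (with the scaling on single windows all 8 were higher), and the intervals of E2f6, E2f7 and E2f8 overlapped between the libraries.

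Among the activators, E2f1 lies on the minus strand of chromosome 2 from 154385143 to 154395628. Its 13 windows held 304 reads in untreated and 134 reads in IL-6-treated cells, a mean of 23.4 (SD 37.8) against 10.7 (SD 6.89). This ratio of 0.458 (0.371 to 0.563) was the lowest of the family, at the 11.1 percentile of the log2 ratios of all genes. E2f2, on chromosome 4 from 135728309 to 135751972, held 679 and 331 reads in 30 windows. Its mean was 22.6 (SD 33.5) against 11.5 (SD 8.90), a ratio of 0.506 (0.442 to 0.578). Both genes had a similar level in each library, and their intervals overlapped in both. E2f3 is far longer, from 29998444 to 30077537 on the minus strand of chromosome 13, and held 949 and 742 reads in 109 windows. With a mean of 8.71 (SD 12.4) against 7.07 (SD 4.58), its ratio was 0.812 (0.736 to 0.894), nearer to 1 than that of the other activators.

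Of the repressors, E2f4 had the highest signal of the family in both libraries. On chromosome 8, from 107821563 to 107829269, its 11 windows held 360 reads in untreated and 171 in IL-6-treated cells. The mean was 32.7 (SD 36.8) against 16.1 (SD 8.30), a ratio of 0.493 (0.409 to 0.593). E2f5, on chromosome 3 from 14578671 to 14606308, held 342 and 203 reads in 40 windows. Its mean of 8.55 (SD 20.9) went to 5.27 (SD 6.08), the lowest level of the family in IL-6-treated cells, with a ratio of 0.616 (0.515 to 0.735). E2f6, on chromosome 12 from 16817771 to 16833549, held 328 and 295 reads in 21 windows. Its mean was 15.6 (SD 11.8) against 14.6 (SD 7.32), and the interval of its ratio of 0.934 (0.795 to 1.10) included 1. E2f4 and E2f5 thus shared a lower value with E2f1 and E2f2, and E2f6 did not.

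The atypical members stood near the median of all genes in both libraries. E2f7, on chromosome 10 from 110182495 to 110224440, held 386 and 413 reads in 56 windows, a mean of 6.89 (SD 4.52) against 7.66 (SD 5.03). E2f8, on the minus strand of chromosome 7 from 56121799 to 56136966, held 172 and 157 reads in 20 windows, a mean of 8.60 (SD 5.39) against 8.15 (SD 3.98). The ratios were 1.11 (0.965 to 1.28) and 0.948 (0.758 to 1.18), and both intervals included 1. The start sites and first exons of both genes lie outside the counted windows. The GENCODE start sites of E2f1 and E2f2 also lie outside, and these genes had ratios of 0.458 and 0.506. The part of this placement in the ratios was not tested.

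In untreated cells the order of the levels was E2f4, E2f1, E2f2, E2f6, E2f3, E2f8, E2f5 and E2f7. E2f1 and E2f2 could not be told apart by their intervals, nor could neighbors among E2f3, E2f8 and E2f5. In IL-6-treated cells the order became E2f4, E2f6, E2f2, E2f1, E2f8, E2f7, E2f3 and E2f5. Here the intervals of E2f4 and E2f6 overlapped, as did those of each pair of neighbors from E2f2 to E2f3. The highest level of the family was 4.75 times the lowest before and 3.06 times after IL-6. Of the 8 genes, 7 exceeded the median of all genes before IL-6 and 5 did so after it.

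**Figure D2:**
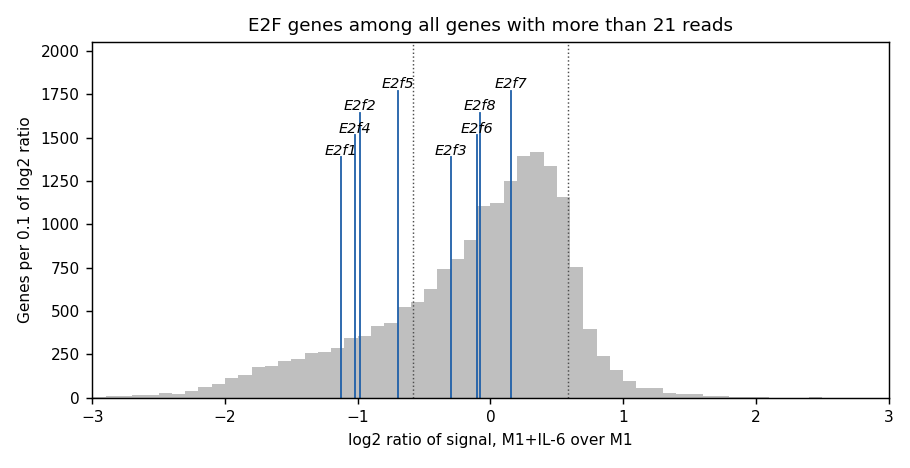
Number of genes (vertical axis) by log2 ratio of signal in IL-6-treated over untreated M1 cells (horizontal axis, bins of 0.1) for 18473 genes, with the 8 E2F genes as blue lines and dotted lines at a fold of 1.5. E2f1, E2f4, E2f2 and E2f5 lie left of the lower dotted line, and E2f3, E2f8, E2f6 and E2f7 lie between the dotted lines. Another common scaling would shift the horizontal axis and leave the order as it is (with that on single windows all 8 lie above 0).

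Genes with strong signal tended to have lower ratios, so the tested genes were ordered by summed signal and divided into 10 bins of equal size, and each member was set beside the genes of its own bin. E2f1, E2f2 and E2f6 were in bin 8, where the median log2 ratio was -0.20 and 29.3% of genes were at least 1.5-fold lower. Of the genes there, 8.99% had a lower log2 ratio than E2f1, 13.7% than E2f2 and 55.5% than E2f6. E2f4 was in bin 9, with a median of -0.52 and 46.5% of genes lower, and 24.4% of those genes were below it. E2f3, E2f5 and E2f7 were in bin 4, with a median of 0.17 and 9.37% of genes lower. There 6.33% of genes were below E2f5, 18.1% below E2f3 and 48.6% below E2f7. E2f8 was in bin 5, and 34.7% of genes there were below it. Beside genes of like signal E2f5 was thus the lowest of the family, followed by E2f1 and E2f2, and E2f4 was less extreme than its ratio alone.

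The SD between the windows of a whole span bounds how many reads its strongest window can hold. At E2f1 the strongest window held 80 to 149 reads in untreated cells and 15.6 to 33.2 scaled reads after IL-6. At E2f2 it held 71 to 200 against 18.7 to 58.1. At E2f4 it held 71 to 143 against 20.8 to 40.5, and at E2f5 59 to 137 against 12.5 to 42.6. In these 4 genes the ranges did not overlap, so the strongest window was lower in IL-6-treated cells wherever it lay. This was the case for 27.6% of all genes, and the opposite for 6.04%.

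In the other 4 members these whole-span ranges overlapped. The strongest window of E2f3 held 27 to 137 reads before and 10.4 to 54.0 after IL-6, and that of E2f6 25 to 67 against 18.7 to 45.7. For E2f7 the range was 10 to 40 against 11.4 to 43.6, and for E2f8 12 to 31 against 10.4 to 24.9. At E2f3 the windows of the longer transcript alone, described below, narrow the range. The strongest of them held at least 58 reads in untreated cells, above the 54.0 possible after IL-6. The strongest window of E2f3 was thus also lower after IL-6 on the scaling of the table. The shares over all genes rest on whole-span ranges. With the scaling on single windows the ranges of E2f1, E2f2, E2f4 and E2f5 overlapped as well, 3.97% of all genes were lower, and the strongest windows of 3 members, E2f6, E2f7 and E2f8, were higher. The study called hypersensitive sites by a reads count above 21 and named no window size for that count. Here the cutoff is set on the scaled reads of a 700-bp window. By whole-span ranges, a window above 21 was certain for 6 members in untreated cells, all but E2f7 and E2f8, against 42.8% of all genes. After IL-6 it was certain by these ranges for none of the 8, against 22.1%, although they allowed one in all 8. The parts of a span described below narrow this for E2f2 and E2f8. At E2f2 the strongest of the 5′ windows held at least 22.8 scaled reads after IL-6, so a window above 21 was certain there. At E2f8 no window of either part could hold more than 20.8 scaled reads after IL-6, so none was above 21. These statements hold on the scaling of the table. With the scaling on single windows, a window above 21 was certain for 8 of 8 in IL-6-treated cells, against 95.3% of all genes. None of these shares was matched for the number of windows.

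**Figure D3:**
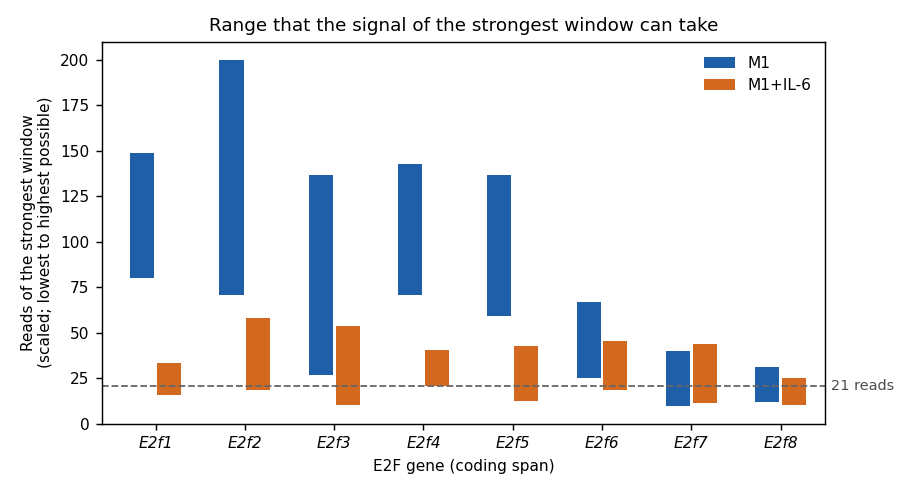
Lowest to highest number of scaled reads (vertical axis, bars) that the strongest 700-bp window of each E2F coding span can hold, in untreated (blue) and IL-6-treated (orange) M1 cells. The dashed line marks 21 reads. The bars of E2f1, E2f2, E2f4 and E2f5 do not overlap between the libraries on the scaling of the table (they do with that on single windows), and those of E2f3, E2f6, E2f7 and E2f8 overlap. Bars use whole spans, and parts of a span narrow some of them. At E2f3 the strongest window held at least 58 reads before IL-6, above its bar after IL-6. After IL-6 it held at least 22.8 scaled reads at E2f2 and at most 20.8 at E2f8.

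In the reads counted, the strongest window was not all of the difference at E2f1, E2f2 and E2f4. It held between 26.3% and 49.0% of the reads of E2f1 in untreated cells and between 11.2% and 23.9% after IL-6. Without it, the ratio of the remaining windows was between 0.473 and 0.797 at E2f1, between 0.470 and 0.678 at E2f2 and between 0.474 and 0.722 at E2f4. At E2f5 it was between 0.594 and 0.967. None of these bounds includes counting error. The bounds cannot be narrowed further for E2f1, E2f4 and E2f5, whose listed rows all cover the same windows. Relative to its mean, the SD between windows was smaller after IL-6 in 7 of 8 members, all but E2f7, and in 82.2% of all genes.

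For 4 members, E2f2, E2f6, E2f7 and E2f8, a shorter transcript shared an end with the longest, and the difference of their rows divided the span into 5′ windows and other windows. The comparison of these parts does not depend on the scaling. At E2f2 the 12 windows from 135728601 to 135737000, which touch exons 1 to 3 of 7, held 499 reads in untreated and 166 in IL-6-treated cells. The mean of these windows, which hold the downstream promoter printed above, was 41.6 (SD 47.3) against 14.4 (SD 11.3), a ratio of 0.345 (0.288 to 0.412). The other 18 windows held 180 and 165 reads, a mean of 10.0 (SD 6.63) against 9.52 (SD 6.47) and a ratio of 0.952 (0.766 to 1.18). The lower signal of E2f2 therefore lay in its 5′ windows, which held 73.5% of its reads before and 50.2% after IL-6. The ratio of the 5′ windows was 0.363 times that of the other windows (exact conditional interval 0.273 to 0.482).

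E2f6 had the same division although its whole span hardly differed. Its 5 windows from 16817501 to 16821000, which hold the start site and touch exon 1 of 7, held 130 and 57 reads. Their mean was 26.0 (SD 18.4) against 11.8 (SD 4.44), a ratio of 0.455 (0.327 to 0.626). They hold the E2f6 promoter printed above. The other 16 windows held 198 and 238 reads, a mean of 12.4 (SD 6.90) against 15.4 (SD 7.93) and a ratio of 1.25 (1.03 to 1.51). The ratio of the 5′ windows was 0.365 times (0.249 to 0.532) that of the others. Within the 5′ windows the strongest held 37 to 58 reads before and 13.5 to 19.7 scaled reads after IL-6, so none of them was above 21 in IL-6-treated cells on the scaling of the table.

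The atypical members differed less between the parts. At E2f8 the 7 windows from 56130901 to 56135800, with exons 2 to 5 of 13, held 85 and 58 reads, a mean of 12.1 (SD 6.09) against 8.60 (SD 4.23). The ratio of 0.708 (0.498 to 1.00) had an upper bound at 1, and the other 13 windows, with 87 and 99 reads, had 1.18 (0.877 to 1.59). The ratio of the 5′ windows was 0.601 times (0.376 to 0.954) that of the others. At E2f7 the 13 windows from 110182801 to 110191900, with exons 2 and 3 of 13, held 89 and 106 reads, a ratio of 1.24 (0.924 to 1.66). The other 43 windows had 297 and 307 reads and a ratio of 1.07 (0.912 to 1.26). There the quotient of the ratios was 1.15 (0.823 to 1.62), an interval that included 1. Both sets of 5′ windows lie downstream of the promoter, and those of E2f2 likewise lie downstream of its upstream promoter.

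**Figure D4:**
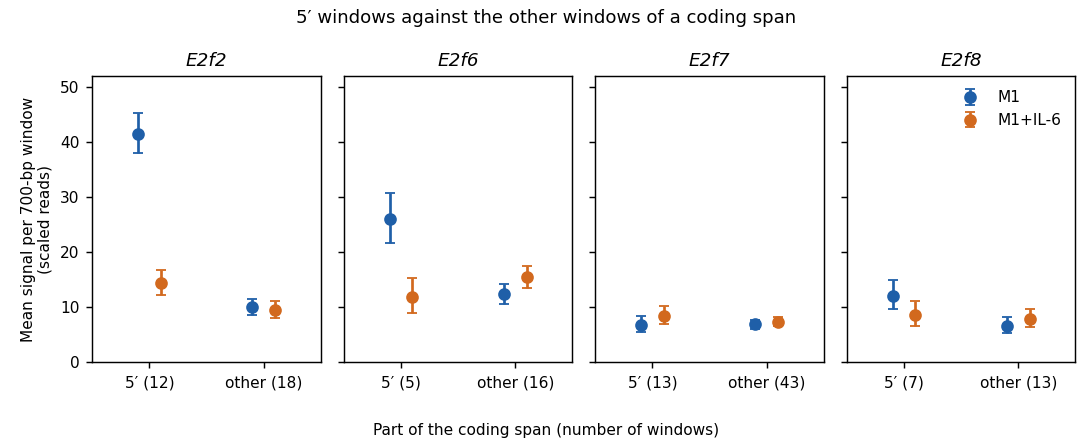
Mean signal per 700-bp window (scaled reads) of the 5′ windows and the other windows of 4 E2F coding spans in untreated (blue) and IL-6-treated (orange) M1 cells, with 95% Poisson intervals and the number of windows in brackets. The 5′ windows of E2f2 and E2f6 had means of 41.6 and 26.0 before and 14.4 and 11.8 after IL-6 on the scaling of the table (with that on single windows they were higher after IL-6), while all other parts stayed below 16 in both libraries.

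A lower ratio at the 5′ end was common. Among 6093 genes whose rows could be divided in this way, 69.1% had a lower ratio in the 5′ windows than in the others, and in 36.4% it was lower by 1.5 times or more, as it was in 3 of the 4 members, E2f2, E2f6 and E2f8. The 5′ windows were at least 1.5-fold lower after IL-6 in 34.9% of these genes and in 2 of the 4 members, and the other windows in 9.40% and in none of the 4. The median log2 ratio over these genes was -0.14 for the 5′ windows and 0.16 for the others. Over all genes, those with the start site inside the windows had a median of -0.12 and 31.6% at least 1.5-fold lower, and those with it outside had a median of 0.13 and 13%. E2f4 and E2f5 were lower with the GENCODE start inside. E2f1 and E2f2 were lower with it outside, although the RefSeq start of E2f1 and the downstream RefSeq start of E2f2 were inside.

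E2f3 has a second listed transcript that starts further downstream. Its 94 windows, from 30010401 to 30076200, held 726 and 612 reads, a mean of 7.72 (SD 8.35) against 6.76 (SD 4.32) and a ratio of 0.875 (0.785 to 0.976). The 15 windows that belong to the longer transcript alone, 2 at the 5′ end with the GENCODE start and 13 at the 3′ end, held 223 and 130 reads. Their mean was 14.9 (SD 26.2) against 9.0 (SD 5.74), a ratio of 0.605 (0.484 to 0.755). The strongest of them held 58 to 109 reads before and 12.5 to 29.1 scaled reads after IL-6. The ends could not be divided further. The downstream promoter of E2f3 printed above lies in the 2 windows at the 5′ end, from 30076201 to 30077600.

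The coding spans also differed in length and base composition. They ran from 11 windows (E2f4) to 109 windows (E2f3), against a median of 16 windows over all genes. The GC content of the windows was 51.4% for E2f1 and for E2f2, 50.0% for E2f4 and 39.8% for E2f5, so the 4 lower genes held both the highest and the lowest of the family. It was 45.7% for E2f3, 47.5% for E2f6, 46.4% for E2f7 and 46.1% for E2f8, against a median of 45.6% over all genes. The genes closest to each member in the 2 levels, among genes with a similar number of windows, were Mrpl22 for E2f1, Fpgs for E2f2, Abl2 for E2f3 and Slc35c1 for E2f4. For E2f5 to E2f8 they were Slc25a46, Ssbp4, Traf3ip2 and Tcn2. With 2 libraries such likeness is easily met, and between 8 and 29 genes lay within 0.1 on the log2 scale of each member.

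Among the genes of the DP partners, Tfdp1 held 984 and 640 reads in 55 windows, a ratio of 0.675 (0.610 to 0.747), and Tfdp2 held 406 and 450 reads in 64 windows, a ratio of 1.15 (1.00 to 1.32). The 3 pocket protein genes lay between the 28.9 and 36.9 percentiles of the log2 ratios of all genes. Rb1, the retinoblastoma gene, had a ratio of 0.806 (0.747 to 0.869), Rbl1, which encodes p107, one of 0.754 (0.669 to 0.850), and Rbl2, which encodes p130, one of 0.864 (0.781 to 0.955). None of these 5 genes was 1.5-fold lower or higher, against 23.2% and 10.8% of all genes, and their median log2 ratio was -0.31. The MuvB core joins E2f4, E2f5 and pocket proteins in the DREAM complex, which silences cell cycle genes in resting cells. Of its 5 genes, 2 (40%) were at least 1.5-fold lower, against the same 23.2% of all genes. The median level of these 5 in untreated cells was 13.8, against 7.75 over all genes. They were not set beside genes of like signal. Rbbp4, a histone-binding protein shared with other chromatin complexes, held 531 reads before and 188 after IL-6, a ratio of 0.368 (0.310 to 0.435), and Lin52 held 1563 and 889, a ratio of 0.590 (0.543 to 0.642). Lin37 had a ratio of 0.696 (0.495 to 0.973), Lin9 one of 0.950 (0.826 to 1.09) and Lin54 one of 1.02 (0.881 to 1.18). With the scaling on single windows the medians of both groups were above 0.

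A list of 36 genes known to be driven by E2F factors in dividing cells was examined in the same way. Of these, 16 (44.4%) were lower after IL-6 by this fold and none was higher by it, against 23.2% and 10.8% of all genes. The median log2 ratio was -0.45. The median level of the list in untreated cells was 12.5, against 7.75 over all genes. The list was not set beside genes of like signal, so the part of signal level in these shares was not tested. The 3 lowest ratios were those of Mcm7, Pcna and Ccna2. Mcm7, a subunit of the replicative helicase, held 817 reads before and 197 after IL-6 in 11 windows, a ratio of 0.250 (0.213 to 0.293). Pcna, the sliding clamp of DNA polymerase, held 185 and 51 reads, a ratio of 0.286 (0.206 to 0.392). Ccna2, which encodes cyclin A2, held 508 and 163 reads, a ratio of 0.333 (0.277 to 0.398). The 3 highest were Brca1, a DNA repair gene, with 1.17 (1.06 to 1.28), Pola1, a DNA polymerase subunit, with 1.13 (1.02 to 1.26), and Cdk1, the mitotic kinase, with 1.07 (0.847 to 1.34). The strongest window was lower for certain in 18 of the 36 genes, against 27.6% of all genes. The start site was inside the windows in 16 of the 36, against 54.9% of all genes. For comparison, Gapdh, an enzyme of glycolysis that serves as a reference gene, had a ratio of 0.236 (0.188 to 0.294), below every gene of the list, and Myb had 0.518 (0.455 to 0.589). With the scaling on single windows the median of the list was above 0.

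**Figure D5:**
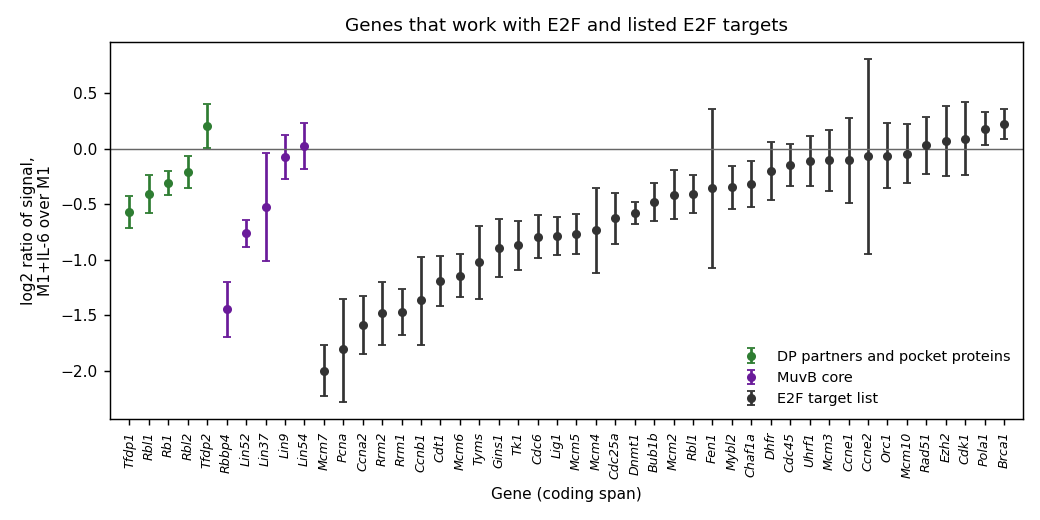
Log2 ratio of signal in IL-6-treated over untreated M1 cells (vertical axis) for the genes of DP partners and pocket proteins (green), the MuvB core (purple) and the E2F target list (black), sorted within each group, with 95% Clopper-Pearson intervals for counting error. Mcm7 was lowest at -2.00 and Brca1 highest at 0.22 on the scaling of the table. Another common scaling shifts all points alike (that on single windows puts the median of each group above 0).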

How the data were processed

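DNase I hypersensitivity was measured in untreated and in IL-6-treated M1 cells, with 1 library of each. Reads were trimmed and then mapped by the authors to NCBIM37 (mm9) using BWA, as the methods and the submitters' processing notes state, and the table was exported from Seqmonk. Each deposited value is a signal, given as mean and SD between the 700-bp windows of a coding span, and the listed number of windows matched this definition in 100% of the rows. An empty column was not used. All columns of sample values were assigned to a sample.

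The reads of each row were recovered as the mean times the number of windows, divided by the value of 1 read. All were within 0.05 of a whole number. Sums of squares from the SD bounded the strongest window. The deposited scaling was kept, and 0.5 reads were added before a log2 ratio. Annotated starts came from GENCODE M1, whose coding spans equaled 99.9% of those used. The recovery was tested on simulated data. With 1 library per condition no p-value is given.

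The members and the lists of partner, MuvB, target and marker genes were chosen with earlier results of these data known. Named genes were all members, partners and MuvB genes, the 3 highest and 3 lowest target genes, the gene closest to each member with a number of windows within 25%, Gapdh and Myb. Of the markers, Spi1 is listed under its older symbol Sfpi1. Alternatives covered the scaling, the reads added, the row chosen, the fold and the filter. Python 3.11.15, numpy 2.4.6, pandas 2.3.3, scipy 1.17.1 and matplotlib 3.10.9 were used.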

Additional observations from a re-analysis of the deposited data

How the results depend on the processing

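No paired analysis was possible because there is 1 library per condition. Among 142 values recomputed for 20 results, 116 stayed within the counting interval of the reported value, within 1 SD of the members of a list or within 1.5 times a reported number. The scalings by read totals, by no factor and by all genes, and 5 reads added, moved none out of these limits.

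The median of ratios over 518 recovered single windows (22 reads or more in each library), added after seeing the data, shifts all log2 ratios by 1.85. E2f1 to E2f8 then had log2 ratios of 0.72, 0.86, 1.54, 0.82, 1.15, 1.75, 2.00 and 1.77, and the 5′ windows of E2f2, E2f6, E2f7 and E2f8 had 0.31, 0.71, 2.15 and 1.34. The medians were 1.35 for the E2F genes, 1.53 for partners and pocket proteins, 1.32 for MuvB and 1.40 for the targets, against 1.87 for all genes. At a fold of 1.5, 0 members were lower and 8 higher, and 78 genes were lower and 19145 higher, out of 20848 that exceeded 21 scaled reads under this scaling.

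With the row of fewest windows E2f2 had a log2 ratio of -0.071, since that row leaves out its 5′ windows, and E2f6 had -1.13, since that row holds only them. At a fold of 2, 2 members, 2475 genes lower and 313 higher remained past the threshold. Without a filter 3325 genes were 1.5-fold higher. The depth leaves the direction of the whole-span ratio undecided at E2f6, E2f7 and E2f8. At E2f6 that ratio joins 5′ windows with a ratio of 0.455 and other windows with 1.25 on the scaling of the table.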
